A study of Mus musculus with 30 samples.

Results

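Gene expression was compared between C2C12 myotubes that received the saponin fraction of Korean Red Ginseng before D-galactose (SFr_Dgal) and myotubes that received D-galactose alone (Dgal). C2C12 is a mouse myoblast line that fuses into multinucleated, contractile myotubes when serum is lowered. The 6 libraries of this comparison, 3 per group, were chosen by their treatment labels from a series of 30 libraries in 10 groups, and all 12184 genes with enough counts, of 16025 symbols in the table, were examined. D-galactose was given at 20 mg/mL for 24 h, and the saponin fraction at 100 µg/mL for 12 h before it. Below, treated libraries are those of SFr_Dgal, and untreated ones are those of Dgal, which received D-galactose without the fraction. All cells were wild-type C2C12 of 1 line, and the design text calls the libraries biological replicates without naming separate cultures. The p-values therefore measure the spread between libraries within groups, estimated over all 30 libraries of the series.

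Other groups serve as references. Control received vehicle, SFr the saponin fraction alone for 12 h, RGW_Dgal the water extract at 100 µg/mL and NSFr_Dgal the non-saponin fraction at 100 µg/mL, each for 12 h before D-galactose at the same dose and time. Rb2_Dgal received the purified saponin ginsenoside Rb2 at 20 µM on the same schedule.

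Ginseng saponins are ginsenosides, triterpenoid glycosides whose carbon skeleton resembles that of a sterol. Animal cells sense their own sterols in the endoplasmic reticulum, where INSIG proteins hold the SREBP transcription factors back while sterols are plentiful, and released SREBP switches on the genes of cholesterol and fatty acid synthesis. Reactive chemicals are sensed in another way, through KEAP1 and the transcription factor NRF2, which drives the genes of glutathione and NADPH supply. D-galactose is a sugar whose excess is used in cultured cells and animals as a model of ageing.

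The 6 libraries held 22209306 to 30218420 counts. The first principal component of their log2 levels carried 64.4% of the variance and separated the groups, with Dgal between -21.2 and -21.0 and SFr_Dgal between 20.3 and 22.4. Replicate 3 of SFr_Dgal stood apart within its group: its counts differed from those of the other 2 libraries with a chi-square of 13.1 and 13.7 per degree of freedom, against 6.11 between those 2. On the log2 scale, each gene was set against its mean over the 6 libraries. In that library the 1947 shortest genes then lay at a median of 0.124 and an equally sized set of the longest at -0.0739. Replicates 1 and 2 of SFr_Dgal lay at -0.0161 and 0.00969 for the shortest and at 0.0180 and -0.0314 for the longest. Replicate 3 of Dgal lay at -0.0613 and 0.0589. Results are therefore given with and without replicate 3 of SFr_Dgal where it moved them. The 9 tested myotube markers summed to 21708 to 22460 CPM (counts scaled to library size) in Dgal and 20599 to 21469 CPM in SFr_Dgal. By gene, 5 of them were called lower and 1 higher (median log2 fold change -0.46). Markers of adipocytes summed to at most 7.91 CPM in any of the 6 libraries and those of endothelium to at most 4.92 CPM. Bone and cartilage markers summed to 76.0 to 86.0 CPM in Dgal and 92.8 to 95.8 CPM in SFr_Dgal, with Acan at 0. Of the 3 tested, Sox9 was higher (0.48) and Runx2 (-0.24) and Sp7 (-1.24) lower. Macrophage markers summed to 2.59 to 4.19 CPM in Dgal and 6.53 to 7.24 CPM in SFr_Dgal, mostly Cd68, a lysosomal protein gene. Among the 3 macrophage markers tested, 1 was called higher, 1 was called lower and 1 was not called (median log2 fold change 0.04). The leukocyte marker Ptprc was at 0 in all Dgal libraries and at most 0.0421 CPM in SFr_Dgal.

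The saponin fraction changed the level of many genes under D-galactose, most of them by little. In the edgeR quasi-likelihood test, 5028 genes (41.3% of those tested) differed at an adjusted p under 0.05, of which 2472 (20.3%) were higher and 2556 (21%) lower. Without replicate 3 of SFr_Dgal the count for SFr_Dgal against Dgal was 4326. Of the called genes, 3989 differed by less than 1.5-fold and 398 (3.27%) by at least 2-fold, 175 of them higher and 223 lower. The median log2 fold change over all genes was -0.01, and 90% of genes lay between -0.62 and 0.57. The share called grew with level, from 20.6% of genes under 1 CPM to 54.7% of genes over 100 CPM. Lack of overlap between the 2 groups was common. Of the 12184 genes, 2740 lay higher and 2962 lower in SFr_Dgal without overlap, and 4653 of the 5028 called genes did not overlap.

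**Figure D1:**
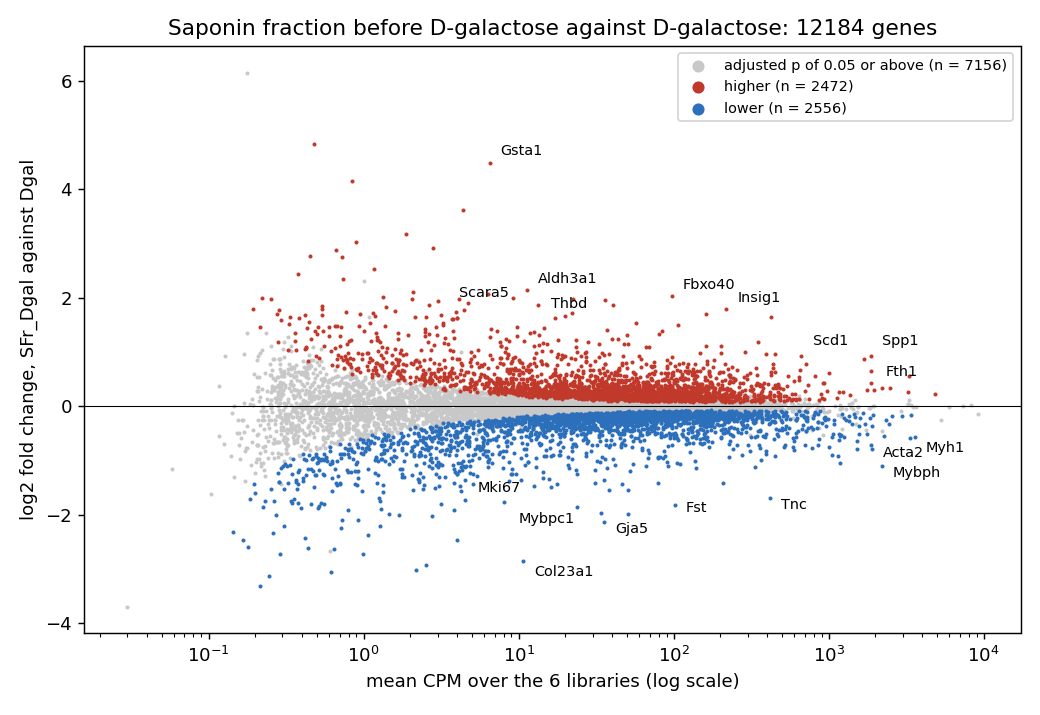
Log2 fold change of SFr_Dgal against Dgal (vertical axis) against mean CPM over the 6 libraries (horizontal log axis) for 12184 genes, with 2472 called higher in red and 2556 called lower in blue. Gsta1 and Col23a1 stand at the upper and lower edge among genes of at least 5 CPM, while abundant genes such as Spp1, Mybph and Acta2 moved by smaller steps.

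The largest rise among genes of at least 5 CPM was in Gsta1, an alpha-class glutathione transferase that conjugates reactive compounds to glutathione. Gsta1 stood at 0.759, 0.357 and 0.544 CPM in the 3 Dgal libraries and at 13, 10.1 and 14.3 CPM in SFr_Dgal. The log2 fold change was 4.49 ± 0.19 (SE, adjusted p = 8.81e-20), and every treated library lay far above every untreated one. Gsta2, a near-identical neighbour, was at 0 to 0.0447 CPM in Dgal, under the 3 counts that set the detection limit (0.0993 to 0.135 CPM), and at 0.933 to 0.945 CPM in SFr_Dgal. Reads that fit both genes were divided between them by estimation, so the split between Gsta1 and Gsta2 is uncertain. On GRCm38, Gsta1 lies at chr9:78230656-78242684 on the plus strand.

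Next came genes of varied function. Each had no overlap between groups, which was a condition for naming the largest rises and falls. Aldh3a1, an aldehyde dehydrogenase, rose from 3.84, 4.51 and 4.20 CPM to 19.0, 18 and 18.4 CPM (log2 fold change 2.14 ± 0.09). Fbxo40, a muscle ubiquitin ligase subunit known to target the insulin receptor substrate IRS1, rose from 34.5, 39.5 and 41.1 CPM to 164, 154 and 154 CPM (2.03 ± 0.06, adjusted p = 2.20e-22). Thbd, which encodes the anticoagulant receptor thrombomodulin, rose from 17.0, 16.8 and 18.3 CPM to 64.2, 58.6 and 68.0 CPM (1.87 ± 0.06). In these genes the libraries of a group lay close together and the groups several-fold apart. The same held for Ranbp3l, of the Ran-binding protein family (2.06 ± 0.14), Galnt15, of the mucin-type glycosyltransferases (2.01 ± 0.11), Fbln7, a fibulin of the matrix (1.98 ± 0.07), and Gpr137b, a lysosomal membrane protein (1.97 ± 0.08). Mgp, the matrix Gla protein that restrains calcification, rose from 79.0, 72.6 and 78.5 CPM to 238, 230 and 279 CPM (1.70 ± 0.10). Cebpb, a stress-responsive transcription factor, was less even: 10.0, 9.77 and 11.3 CPM in Dgal against 26.1, 26.6 and 48.9 CPM in SFr_Dgal, the highest value in replicate 3 (1.72 ± 0.42, adjusted p = 0.00229).

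The largest fall among genes of at least 5 CPM was in Col23a1, a membrane-spanning collagen. It went from 19.5, 18.7 and 18.5 CPM in Dgal to 2.56, 2.64 and 2.64 CPM in SFr_Dgal, with a log2 fold change of -2.85 ± 0.09 (adjusted p = 1.10e-22). The replicates lay close together, and the ratio of the treated to the untreated mean was 0.138. On GRCm38 the gene lies at chr11:51289920-51583918 on the plus strand. Gja5, the gap junction protein connexin 40, fell from 59.3, 60.3 and 54.4 CPM to 12.3, 14.2 and 13.1 CPM (-2.14 ± 0.07). Fst, the secreted follistatin that binds activin and myostatin, fell from 164, 160 and 152 CPM to 42.3, 45.4 and 48.1 CPM (-1.81 ± 0.05, adjusted p = 2.97e-24). Tnc, the matrix glycoprotein tenascin C, fell from 588, 642 and 682 CPM to 210, 157 and 228 CPM (-1.68 ± 0.17). By the condition for naming them, no treated library of these genes reached the lowest untreated one. Adamtsl2, an ADAMTS-like matrix protein (-1.98 ± 0.08), Cdhr1, a cadherin family gene (-1.86 ± 0.08), Smoc2, a SPARC-related matrix protein (-1.48 ± 0.08), Car12, a carbonic anhydrase (-1.47 ± 0.08), and the less studied Fam78a (-1.77 ± 0.10) and R3hdml (-1.54 ± 0.07) completed the leading falls, with Mybpc1 and Actg2 below.

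**Figure D2:**
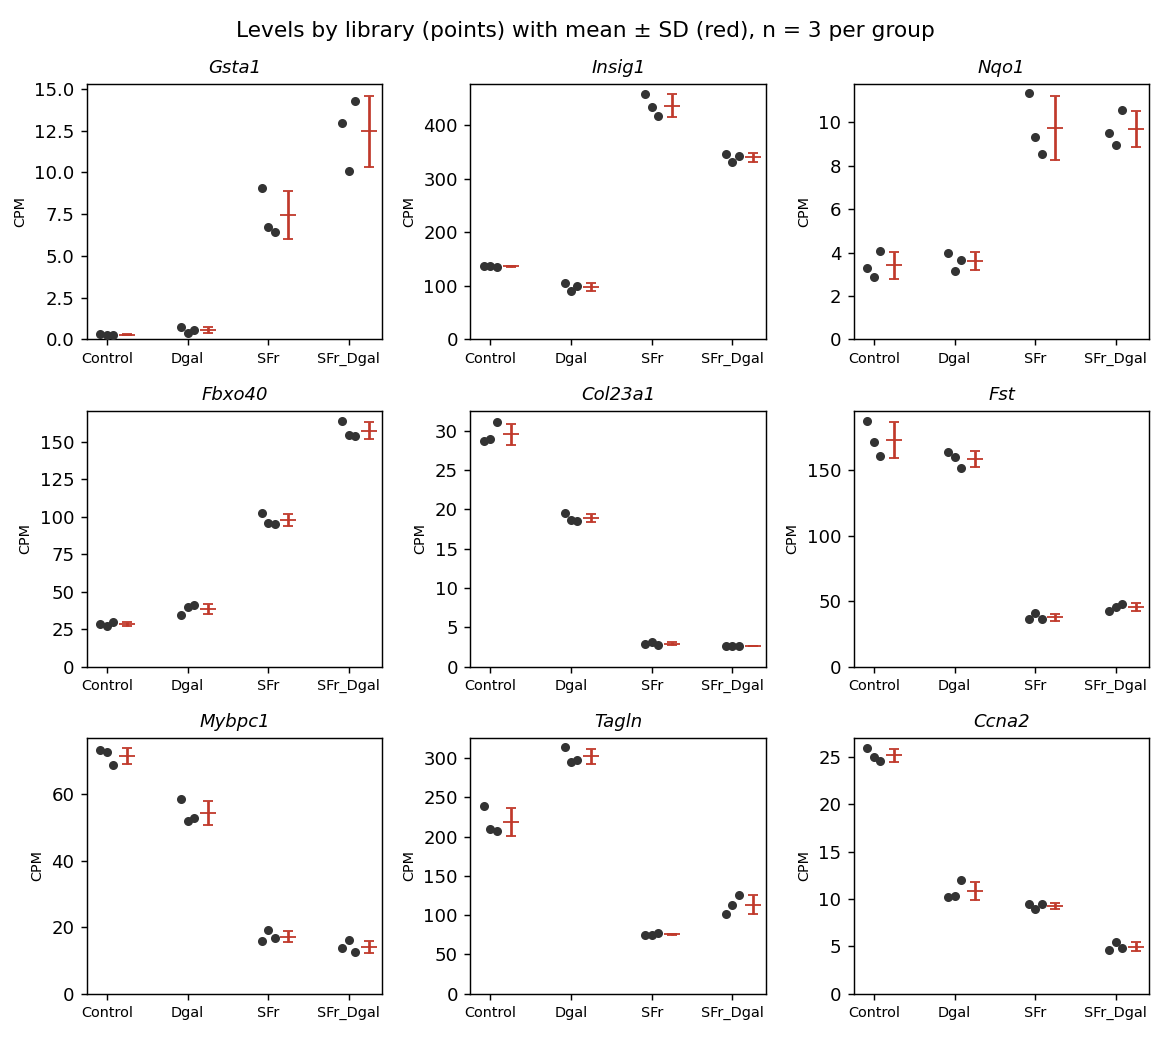
CPM of 9 genes in each library (black points) of Control, Dgal, SFr and SFr_Dgal, with the group mean ± SD in red (n = 3). Gsta1, Insig1, Nqo1 and Fbxo40 were high, and Col23a1, Fst, Mybpc1 and Tagln low, in both groups that received the saponin fraction, while Ccna2 was lowest where both agents were given.

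Cholesterol synthesis rose nearly as a whole. In the mevalonate arm, which makes isoprenoid units from acetyl-CoA, 8 of 9 enzymes rose with a list median log2 fold change of 0.78, against -0.01 over all genes. Hmgcs1, the synthase that makes HMG-CoA, went from 273, 249 and 278 CPM to 532, 517 and 510 CPM (0.96 ± 0.04). Mvd, the decarboxylase at the end of the arm, went from 32.4, 29.7 and 32.2 CPM to 70.2, 65.7 and 73.7 CPM (1.15 ± 0.06). In both genes every treated library lay far above every untreated one. Ggps1, which draws isoprenoids away to geranylgeranyl groups, was the member called lower (-0.12 ± 0.04), a call that was lost without replicate 1 or 3 of SFr_Dgal or replicate 2 of Dgal and in a fit of the 6 libraries alone. All 13 enzymes from squalene to cholesterol rose, with a median of 0.55, led by Tm7sf2 (1.10). Cyp51, the lanosterol demethylase, was at 200, 185 and 190 CPM in Dgal and at 375, 376 and 400 CPM in SFr_Dgal (1.00 ± 0.04, adjusted p = 3.15e-21), and the groups were clearly apart.

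Of 16 genes for sterol sensing and uptake, 10 rose and 0 fell (median 0.14). Insig1 led them, from 104.8, 90.3 and 100 CPM to 346, 331 and 342 CPM (1.79 ± 0.04, adjusted p = 3.00e-26). Its treated libraries lay close together and far above any untreated one (ratio of means 3.45). Srebf1 (0.59 ± 0.04) and Stard4, a sterol carrier (0.82 ± 0.05), rose as well, and Srebf2 rose slightly (0.13 ± 0.03). The 8 genes for sterol efflux and its regulator LXR, a receptor for oxidised sterols, gave 6 rises and 0 falls (median 0.46). Abca1, a cholesterol exporter, went from 8, 11.2 and 9.60 CPM to 32.0, 25.1 and 33.3 CPM (1.66 ± 0.14), and Apoe, the lipid-carrying apolipoprotein, from 18.7, 22.2 and 20.6 CPM to 53, 54.6 and 55.5 CPM (1.41 ± 0.07). Abcg1, also an exporter, rose by 1.16 ± 0.09. Synthesis, sensing and efflux genes thus all held members that were higher, without overlap between groups in those given here by library.

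Among 16 genes of fatty acid synthesis, 13 rose and 2 fell (median 0.27). The desaturase Scd1 went from 1158, 1201 and 1215 CPM to 2257, 2159 and 2119 CPM (0.87 ± 0.04), one of the largest gains in CPM. Scd2 (0.56 ± 0.03), Fads2, a desaturase of polyunsaturated fatty acids (0.71 ± 0.04), and Fasn, the fatty acid synthase (0.57 ± 0.09), also rose, while the elongase Elovl6 (-0.30) and the acyltransferase Gpam (-0.15) fell. Of 24 genes of fatty acid oxidation, 8 rose and 2 fell (median 0.04). The share of this list called in either direction lay near the 41.3% over all genes tested. Among its called members, Angptl4 (0.84 ± 0.07) and Plin2 (0.64 ± 0.05), which act in lipid storage and lipoprotein handling, rose. Cpt1a, which carries fatty acids into mitochondria (0.51 ± 0.05), rose too, and the fatty acid transporter Cd36 fell (-0.51 ± 0.06). Enzymes of β-oxidation itself moved little: Acadm rose (0.16 ± 0.04), Hadha fell (-0.12 ± 0.03), and Acadl (0.02), Acadvl (0.02) and Hadhb (-0.03), the partner subunit of Hadha, were not called.

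Genes of glutathione and NADPH supply known as NRF2 targets rose as a group, 22 of 28 higher and 1 lower (median 0.53). Nqo1, a quinone reductase, was at 3.98, 3.17 and 3.65 CPM in Dgal and 9.50, 8.97 and 10.6 CPM in SFr_Dgal (1.43 ± 0.12). Srxn1, sulfiredoxin, went from 26.0 CPM in each Dgal library to 61.6, 59.6 and 62.8 CPM (1.24 ± 0.05). Gclm, the regulatory subunit of glutathione synthesis, went from 16.9, 18.7 and 18.3 CPM to 35, 34.6 and 36.5 CPM (0.98 ± 0.07). Treated and untreated libraries were well apart in all 3 genes. The catalytic partner of Gclm, Gclc, was the member called lower (-0.18 ± 0.05), but not without replicate 3 of SFr_Dgal nor in a fit of the 6 libraries alone. Pgd (0.78 ± 0.04), of the pentose phosphate pathway, Txnrd1, thioredoxin reductase (0.65 ± 0.04), and Hmox1, haem oxygenase (0.42 ± 0.04), rose too. The transcript of NRF2 itself, Nfe2l2, was at 155 to 160 CPM in Dgal and 156 to 163 CPM in SFr_Dgal (0.01 ± 0.03), with the groups overlapping, and Keap1 rose by 0.30 ± 0.04.

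Glutathione transferases showed 13 rises and 0 falls among 19 tested genes (median 0.58). Beside Gsta1, Gstm1 went from 43.4, 50.4 and 46.2 CPM to 127, 122 and 117 CPM (1.39 ± 0.06) and the membrane-bound Mgst1 from 7.10, 6.65 and 6.18 CPM to 16.1, 15.7 and 19.1 CPM (1.36 ± 0.10). Gsta4, which acts on the lipid peroxidation product hydroxynonenal, rose by 1.23 ± 0.06. Gstm and Gstp genes have close copies, so the level of each single member is uncertain. Of 7 tested genes of the aryl hydrocarbon receptor, a sensor of planar aromatic compounds, 5 rose and 1 fell (median 0.22): Ugt1a6a (1.29 ± 0.09) and Cyp1b1 (0.57 ± 0.04) rose beside Aldh3a1, and the receptor gene Ahr fell (-0.35 ± 0.05). Cyp1a1, the usual marker of this receptor, was too low to be tested.

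Promoter letters were read for genes of these groups and of those below, to show where a short motif known for each regulator stands. RefSeq windows on GRCm38.p6 matched 9683 of the 12184 tested genes, in 12459 windows, and the 250 bases upstream of each start site were searched on both strands. The sterol response element TCACNCCAC stood in 0.995% of all windows and, among the 3 lists of sterol synthesis and sensing, in that of Hmgcs1 alone, 137 bases before the start. The antioxidant response element core TGACNNNGC stood in 11.8% of all windows and in 8 of 30 windows (26.7%) of the NRF2 target list, but in 3 of 25 (12%) of the glutathione transferase list. The cell cycle motif TTTGAA stood in 10.5% of all windows and in 7 of 24 (29.2%) of the mitosis list, but in 3 of 26 (11.5%) of the DNA replication list. The E-box CAGCTG bound by MyoD stood in 12.6% of all, in 6 of 20 (30%) of the myosin list and in 4 of 10 (40%) of the neuromuscular junction list. The core of the MEF2 site, CTA and TAG with any 4 bases between, stood in 2.75% of all, in 0 of 20 of the myosin list and in 6 of 35 (17.1%) of the thin filament list. The aryl hydrocarbon response element TTGCGTG stood in 1.35% of all and in 0 of 5 of its list. A match describes the letters only. Matches also stood before genes that were not called, such as Nfe2l2 (0.01) and G6pdx (0.11) of the NRF2 target list. Windows of some matched and called genes are shown, Gclm and Txnrd1 both from the NRF2 target list. They run 5′ to 3′ on the gene's strand, with 1 match in capitals. For Gclm and Txnrd1 the capitals are the motif read on the opposite strand, and for Mki67 they mark the first of 2 matches.
Hmgcs1, chr13:119690158-119690277, plus strand: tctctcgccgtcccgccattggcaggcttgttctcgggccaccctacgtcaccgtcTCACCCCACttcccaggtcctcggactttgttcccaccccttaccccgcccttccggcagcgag
Gclm, chr3:122245367-122245486, plus strand: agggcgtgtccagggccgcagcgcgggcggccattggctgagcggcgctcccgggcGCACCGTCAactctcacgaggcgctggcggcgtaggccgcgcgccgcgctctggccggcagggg
Txnrd1, chr10:82859058-82859177, plus strand: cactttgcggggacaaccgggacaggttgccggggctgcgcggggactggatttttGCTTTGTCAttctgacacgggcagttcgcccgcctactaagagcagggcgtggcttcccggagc
Mki67, chr7:135716433-135716552, minus strand: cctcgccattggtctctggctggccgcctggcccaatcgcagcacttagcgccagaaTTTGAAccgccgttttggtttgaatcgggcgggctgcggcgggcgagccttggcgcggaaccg
Mybpc1, chr10:88605177-88605296, minus strand: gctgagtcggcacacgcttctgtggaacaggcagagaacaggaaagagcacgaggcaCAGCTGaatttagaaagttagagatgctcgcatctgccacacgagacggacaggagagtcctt

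**Figure D3:**
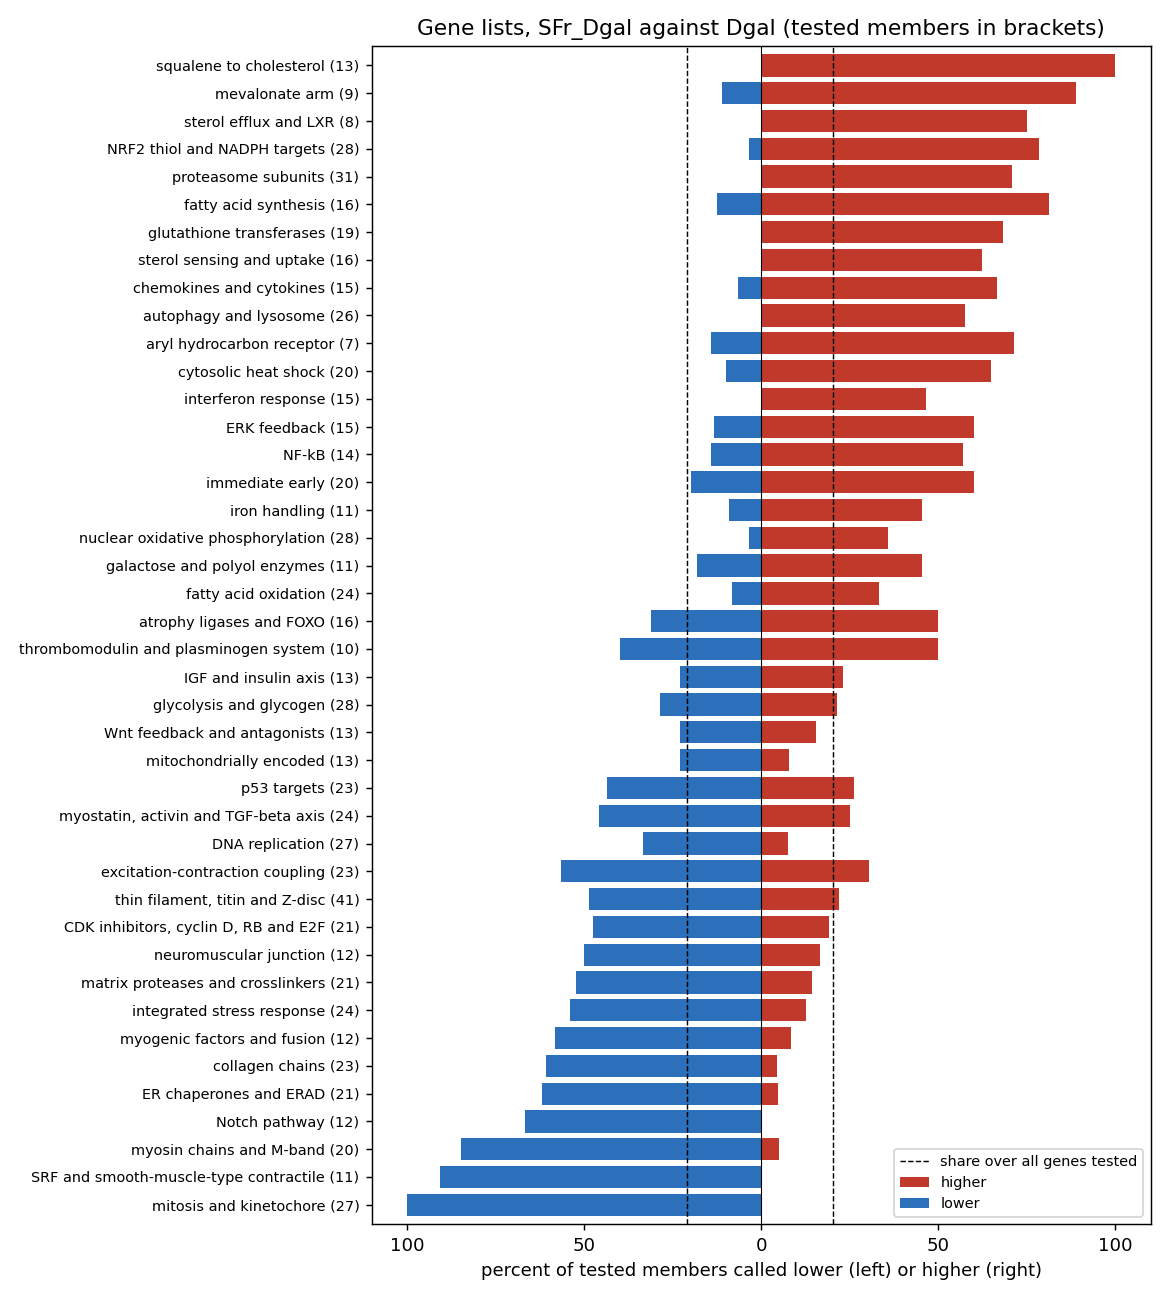
Share of the tested members of 42 gene lists called higher (right, red) or lower (left, blue) in SFr_Dgal against Dgal, with the number tested in brackets. Dashed lines give the share over all genes tested, 20.3% higher and 21% lower. Cholesterol synthesis stands at the top with all or nearly all members higher, and mitosis at the bottom with all 27 members lower.

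Genes of the contractile apparatus were mostly lower. Of 20 myosin chain and M-band genes, 17 fell and 1 rose (median -0.56). Mybpc1, slow myosin-binding protein C, went from 58.5, 51.8 and 53 CPM to 13.8, 16 and 12.5 CPM (-1.96 ± 0.07). Mybph, myosin-binding protein H, went from 2948, 3097 and 2956 CPM to 1357, 1465 and 1392 CPM (-1.09 ± 0.05, adjusted p = 8.81e-20), among the largest losses in CPM. These genes were down by more than 2-fold in every treated library. The perinatal myosin Myh8 (-1.11 ± 0.06), the fast adult myosins Myh4 (-0.92 ± 0.06) and Myh1 (-0.57 ± 0.04) and the embryonic Myh3 (-0.55 ± 0.04) all fell, and the kinase gene Mylk2 rose (0.40 ± 0.04).

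Thin filament, titin and Z-disc genes split, with 20 of 41 lower and 9 higher (median -0.15). Actc1, cardiac α-actin, which developing skeletal muscle also makes, fell from 1802, 2022 and 1918 CPM to 1103, 1139 and 1108 CPM (-0.78 ± 0.04). Acta1, the skeletal α-actin, was at 7104, 7540 and 7284 CPM in Dgal and 7283, 7229 and 7397 CPM in SFr_Dgal (-0.00 ± 0.03, adjusted p = 0.982), with the groups overlapping. The 2 actins thus differed in their response. Myot, myotilin (-0.90 ± 0.09), and Actn2, α-actinin (-0.74 ± 0.05), fell at the Z-disc, whereas Cryab, the small chaperone αB-crystallin (0.62 ± 0.05), Pdlim3 (0.56 ± 0.04), Nrap (0.42 ± 0.05) and the intermediate filament Des (0.22 ± 0.03) rose.

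Excitation-contraction coupling, by which a membrane signal releases calcium, had 13 of 23 genes lower and 7 higher (median -0.17). Casq1, the calcium-storing calsequestrin, fell from 317, 317 and 323 CPM to 185, 195 and 202 CPM (-0.72 ± 0.04). Cacna1s, the voltage sensor (-0.70 ± 0.04), and Atp2a1, the calcium pump SERCA1 (-0.51 ± 0.03), fell, while Pvalb, the calcium buffer parvalbumin (0.43 ± 0.11), and Bin1, of the transverse tubules (0.43), rose. The release channel Ryr1 was not called (-0.10). At the neuromuscular junction 6 of 12 genes were lower and 2 higher (median -0.09), with the acetylcholinesterase Ache (-0.92 ± 0.10), its collagen anchor Colq (-0.57 ± 0.08) and the agrin receptor Lrp4 (-0.46 ± 0.06) lower and the receptor-clustering Rapsn higher (0.24 ± 0.05).

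Among 12 tested genes of myogenic transcription factors and cell fusion, 7 were lower, 1 was higher and 4 were not called (median -0.19). Mef2c went from 579, 597 and 603 CPM to 321, 334 and 286 CPM (-0.92 ± 0.05) and Mef2a from 503, 518 and 516 CPM to 286, 290 and 264 CPM (-0.87 ± 0.04). Myog, myogenin, went from 1208, 1312 and 1223 CPM to 824, 885 and 909 CPM (-0.52 ± 0.05). In each of these the highest treated library stayed below the lowest untreated one. Myod1 fell slightly (-0.21 ± 0.04), as did the satellite cell factor Pax7 (-0.35 ± 0.06), and Myf5 was not called (0.04). The myoblast markers summed to 630 to 653 CPM in Dgal and 499 to 509 CPM in SFr_Dgal, chiefly through Cdh15, M-cadherin (-0.72 ± 0.04). In bulk RNA, fewer cells of a type and less RNA per cell cannot be told apart.

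Ubiquitin ligases of muscle atrophy and the FOXO factors that drive them gave 8 rises and 5 falls among 16 genes (median 0.10). Beside Fbxo40, Trim63, which encodes MuRF1, rose from 52.0, 48.6 and 45.7 CPM to 81.4, 81.2 and 87.0 CPM (0.77 ± 0.06) and Fbxo32, atrogin-1, from 142, 148 and 150 CPM to 208, 202 and 186 CPM (0.44 ± 0.05). Both sets of treated libraries lay above all untreated ones. Foxo1 fell (-0.42 ± 0.05) and Foxo3 was not called (0.07). Among 28 genes of glycolysis and glycogen, 6 rose and 8 fell (median -0.01), near the shares of 20.3% higher and 21% lower over all genes tested. The glucose transporter Slc2a1 (0.69 ± 0.04) and the hexokinase Hk2 (0.63 ± 0.04) rose, while the oxygen store Mb, myoglobin, fell from 954, 1008 and 973 CPM to 558, 556 and 605 CPM (-0.77 ± 0.06) beside Ckm, muscle creatine kinase (-0.58 ± 0.05), and Pygm, glycogen phosphorylase (-0.50 ± 0.03). Gapdh was not called (-0.01 ± 0.05).

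**Figure D4:**
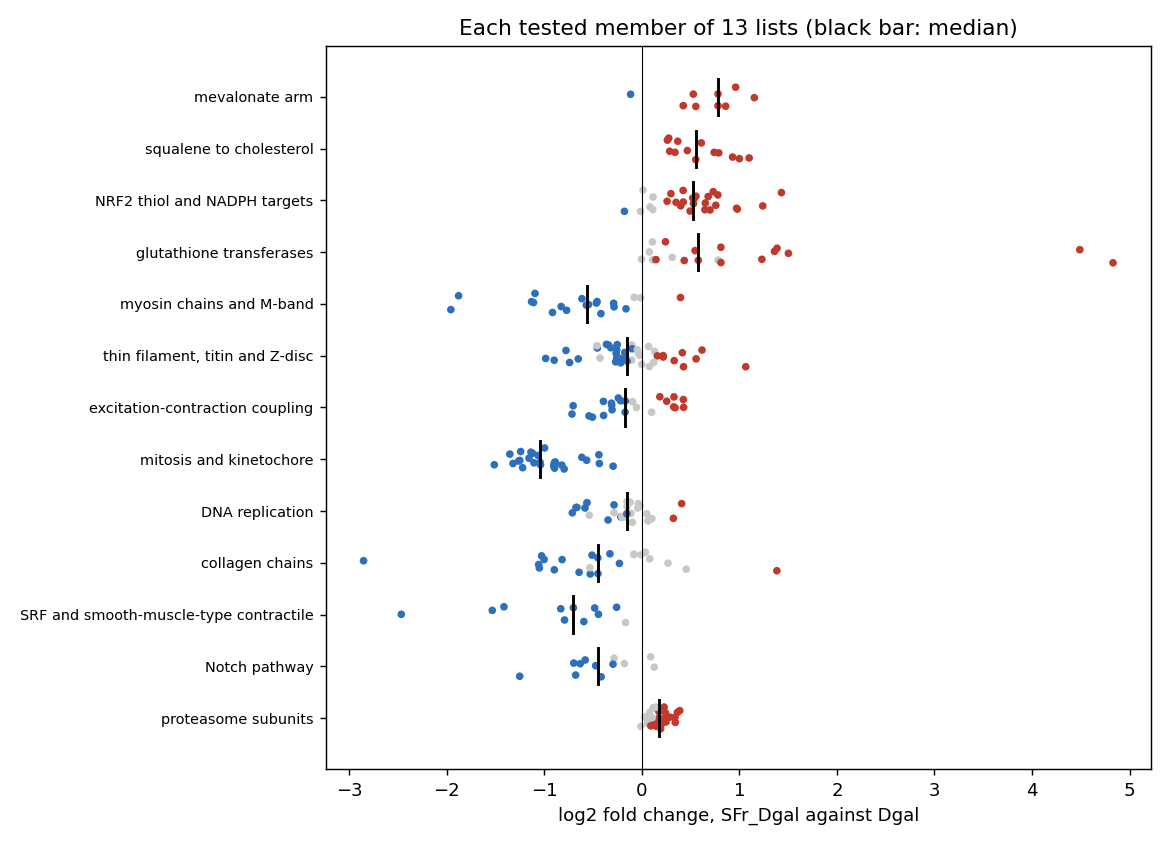
Log2 fold change in SFr_Dgal against Dgal of each tested member of 13 lists, red for called higher, blue for called lower and grey for not called, with the list median as a black bar. Both arms of cholesterol synthesis lie right of 0 but for Ggps1, mitosis genes all lie left of 0 around a median of -1.04, and thin filament genes spread to both sides.

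All 27 tested genes of mitosis and the kinetochore, which segregate chromosomes, were lower in SFr_Dgal, with a median of -1.04 and a range from -1.51 (Bub1) to -0.29 (Cdk1). Mki67, the proliferation marker Ki-67, went from 21.1, 19.8 and 20.5 CPM to 8.67, 7.23 and 8.57 CPM (-1.32 ± 0.21). Ccna2, cyclin A2, went from 10.2, 10.3 and 12.0 CPM to 4.60, 5.48 and 4.82 CPM (-1.14 ± 0.10), Cenpf, a kinetochore protein, from 16.6, 13.4 and 15 CPM to 6.12, 5.56 and 5.90 CPM (-1.35 ± 0.13). Treated libraries lay far below the lowest untreated one in these 3 genes. DNA replication genes moved less: 9 of 27 were lower and 2 higher (median -0.15). The share of this list called in either direction lay near the 41.3% over all genes tested. Rrm1 of ribonucleotide reductase (-0.58 ± 0.04) and the ligase Lig1 (-0.56 ± 0.08) fell, while Mcm3 (-0.04) and Tyms (-0.02) were not called. The replication clamp Pcna rose (0.32 ± 0.05), and so did the licensing factor Cdt1 (0.41), although 1 member was called higher without replicate 3 of Dgal.

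Cell cycle regulators gave 10 falls and 4 rises among 21 genes (median -0.14). E2f2 fell from 127, 104.9 and 115 CPM to 45.3, 42.9 and 42.7 CPM (-1.41 ± 0.05, adjusted p = 1.81e-20), well clear of the spread in either group. Cdkn1a, the inhibitor p21, fell from 2083, 2157 and 2014 CPM to 1415, 1424 and 1534 CPM (-0.52 ± 0.04) and Cdkn1c, the inhibitor p57, from 10.3, 8.79 and 7.97 CPM to 3.80, 4.22 and 5.08 CPM (-1.04 ± 0.11). Cyclin D genes went separate ways, with Ccnd3 lower (-0.57 ± 0.04) and Ccnd1 higher (0.39 ± 0.05).

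Collagen chains were lower in 14 of 23 genes and higher in 1 (median -0.45). Beside Col23a1, Col5a1 went from 1549, 1550 and 1661 CPM to 803, 710 and 785 CPM (-1.05 ± 0.07) and Col1a1 from 1317, 1324 and 1450 CPM to 810, 643 and 745 CPM (-0.90 ± 0.10). Col18a1, the source of endostatin, fell by 1.06 ± 0.05. The fibrillar chain gene Col3a1 was at 6112, 5689 and 6040 CPM in Dgal and 6000, 5666 and 6081 CPM in SFr_Dgal (-0.01 ± 0.04), with the groups overlapping. The member called higher was Col14a1 (1.38 ± 0.16), and 2 were called higher without replicate 3 of SFr_Dgal. Among 21 genes of matrix proteases, inhibitors and crosslinkers, 11 fell and 3 rose (median -0.15). Sparc, a collagen-binding matrix protein, fell from 4112, 3956 and 4012 CPM to 2724, 2775 and 2550 CPM (-0.59 ± 0.03), Timp3, a protease inhibitor, by 0.75 ± 0.04, and fibronectin, Fn1, was not called (-0.15).

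Smooth-muscle-type contractile genes, classic targets of the serum response factor SRF, were lower in 10 of 11 and higher in 0 (median -0.70). Tagln, transgelin, went from 314, 295 and 298 CPM to 101, 113 and 126 CPM (-1.41 ± 0.06), and Acta2, smooth muscle α-actin, from 2374, 2448 and 2419 CPM to 1311, 1432 and 1439 CPM (-0.79 ± 0.04). Cnn1, calponin, was at 5.99, 7.36 and 6.96 CPM in Dgal and 1.14, 1.3 and 1.24 CPM in SFr_Dgal (-2.47 ± 0.16). None of these treated values came near an untreated one. Actg2, enteric smooth muscle actin, fell likewise (-1.53 ± 0.06), and Srf itself was not called (-0.09). Notch signalling, by which neighbouring cells restrain differentiation, had 8 of 12 genes lower and 0 higher (median -0.44), in both receptors such as Notch1 (-0.68 ± 0.10) and Notch3 (-0.58 ± 0.08) and target genes such as Heyl (-0.70 ± 0.05) and Hes1 (-0.47 ± 0.08). Without replicate 1 of SFr_Dgal, 1 Notch gene was called higher.

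In the myostatin, activin and TGF-β axis 11 of 24 genes were lower and 6 higher (median -0.05). Besides Fst, the follistatin relatives Fstl3 (-0.64 ± 0.05) and Fstl1 (-0.59 ± 0.03), the activin chain Inhba (161, 166 and 166 CPM to 91.5, 85.7 and 96.4 CPM, -0.85 ± 0.04) and the ligand Tgfb2 (-0.70 ± 0.04) fell. The activin chain Inhbb rose (0.48 ± 0.04), so the 2 activin chains went opposite ways. Tgfb1 was not called (0.03 ± 0.05), the signal carrier Smad3 fell (-0.51 ± 0.04), and the inhibitory Smad6 (0.43) and Smad7 (0.23) rose. Myostatin, Mstn, was too low to be tested.

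Chemokine and cytokine genes were higher in 10 of 15 and lower in 1 (median 0.67). Cxcl5, which attracts neutrophils, went from 0.402, 0.268 and 0.428 CPM to 2.80, 3.82 and 3.49 CPM (3.17 ± 0.22), Ccl7, which attracts monocytes, from 5.05, 4.86 and 4.67 CPM to 10.4, 10.3 and 10.8 CPM (1.11 ± 0.10), and Il1rn, the interleukin 1 receptor antagonist, from 1.70, 1.78 and 1.98 CPM to 6.32, 6.29 and 5.74 CPM (1.74 ± 0.12). Cxcl12, which guides stem and immune cells, went from 81.7, 77.5 and 80.6 CPM to 138, 137 and 137 CPM (0.78 ± 0.04). Groups did not overlap in any of these 4. The cytokine Lif fell from 18.6, 15.3 and 19.0 CPM to 8.88, 8.20 and 7.43 CPM (-1.11 ± 0.09), and Il6 was not called (-0.77 ± 0.36, adjusted p = 0.0824). Without replicate 1 of Dgal, 2 members were called lower. Genes of NF-κB, the factor behind many chemokines, were higher in 8 of 14 and lower in 2 (median 0.22), with Nfkbia (0.40 ± 0.07) and Nfkbiz (0.61 ± 0.10) higher and the feedback inhibitor Tnfaip3 lower (-0.64 ± 0.05). 1 NF-κB gene was called lower without replicate 3 of SFr_Dgal, or without replicate 1 or 2 of Dgal.

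Immediate early genes, switched on within minutes of a stimulus, were higher in 12 of 20 and lower in 4 (median 0.24). Atf3 (0.83 ± 0.09), Klf2 (0.84 ± 0.08) and Fos (0.66 ± 0.09) rose, Egr3 fell (-0.60), and Jun (-0.04) and Myc (-0.13) were not called. Phosphatases and other brakes on ERK signalling were higher in 9 of 15 and lower in 2 (median 0.23), led by Dusp1, from 34.3, 40.9 and 38.1 CPM to 61.8, 62.6 and 60.5 CPM (0.71 ± 0.05). Interferon response genes were higher in 7 of 15 and lower in 0 (median 0.19), with Stat2 (0.38 ± 0.05) and Ifi35 (0.42 ± 0.07) among them and Isg15 (0.15) not called.

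Protein quality control moved by compartment. Cytosolic heat shock genes were higher in 13 of 20 and lower in 2 (median 0.14), with Hspb1, the small heat shock protein HSP27, from 415, 488 and 477 CPM to 888, 844 and 890 CPM (0.93 ± 0.06). Hspb6 was lower (-0.34), and Hspa4 was lower (-0.10) with a call that was lost without replicate 1 or 3 of SFr_Dgal or replicate 1 or 3 of Dgal, in a fit of the 6 libraries alone and with no filter on low counts. Endoplasmic reticulum chaperones and degradation genes were lower in 13 of 21 and higher in 1 (median -0.12), with Hspa5, the chaperone BiP, from 896, 831 and 874 CPM to 657, 672 and 676 CPM (-0.38 ± 0.04) and Herpud1 from 269, 260 and 255 CPM to 183, 188 and 200 CPM (-0.46 ± 0.04). Untreated libraries lay above treated ones in both genes. Proteasome subunits were higher in 22 of 31 and lower in 0 (median 0.17), by at most 0.39 (Psma7), and 16 were called higher without replicate 3 of SFr_Dgal. Autophagy and lysosome genes were higher in 15 of 26 and lower in 0 (median 0.16). The autophagy receptor Sqstm1 rose from 524, 531 and 514 CPM to 854, 891 and 953 CPM (0.78 ± 0.04) and the cathepsin Ctsb from 811, 784 and 791 CPM to 1065, 1026 and 1126 CPM (0.43 ± 0.03). Leaving out replicate 3 of SFr_Dgal or replicate 1 of Dgal, 1 autophagy gene was called lower.

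Genes of the integrated stress response, which the factor ATF4 drives when amino acids run short, were lower in 13 of 24 and higher in 3 (median -0.20). Fgf21, a stress hormone made by muscle, fell from 51.3, 51.5 and 50.0015 CPM to 18.1, 20.8 and 21.1 CPM (-1.35 ± 0.10), and Chac1, which breaks down glutathione, from 43.1, 36.7 and 39.8 CPM to 23.6, 23.6 and 25.7 CPM (-0.71 ± 0.11). Both fell in every treated library. Atf4 itself was not called (-0.08 ± 0.05). The members called higher were Cebpb, Slc7a11 (0.53 ± 0.21), a cystine carrier, and Ddit4 (0.22), a brake on mTOR. Slc7a11 lost its call without any 1 of the 6 libraries, and 1 member was called higher without replicate 1 of SFr_Dgal, replicate 2 of Dgal or replicate 3 of Dgal.

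Respiratory chain genes of the nucleus were higher in 10 of 28 and lower in 1 (median 0.09), for instance Ndufa1 of complex I (0.52 ± 0.10). The share of these nuclear genes called in either direction lay near the 41.3% over all genes tested. Without replicate 3 of SFr_Dgal 6 were called higher, a share near the 20.3% called higher over all genes with every library kept. Mitochondrially encoded genes took 1.49% ± 0.183 of counts in Dgal and 1.21% ± 0.224 in SFr_Dgal (SD, n = 3), with 3 of 13 called lower and 1 higher (median -0.25). The share called lower lies near the 21% over all genes tested. The lowest treated value of mt-Nd1, a complex I subunit, was in replicate 3: 2148, 2248 and 2575 CPM in Dgal against 1678, 1538 and 1016 CPM (-0.72 ± 0.19, adjusted p = 0.00426), which did not reach the threshold in a fit of these 6 libraries alone (adjusted p = 0.0635). Without replicate 3 of SFr_Dgal or replicate 3 of Dgal, 1 mitochondrial gene was called lower, and without replicate 2 of either group 0 were called higher. In replicate 3 of SFr_Dgal the shortest genes lay high (median 0.124), while its mitochondrially encoded share was low (0.972% of counts). Any link between gene length and these counts was not tested.

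Among 11 genes of iron handling, 5 rose and 1 fell (median 0.05). Ferritin heavy chain, Fth1, rose from 1455, 1464 and 1487 CPM to 2250, 2211 and 2458 CPM (0.65 ± 0.04) and the light chain Ftl1 from 296, 309 and 304 CPM to 588, 588 and 606 CPM (0.97 ± 0.06). Scara5, a receptor that takes up ferritin, rose from 4.96, 6.56 and 5.64 CPM to 21.2, 19.9 and 21.8 CPM (1.88 ± 0.09). The transferrin receptor Tfrc fell from 921, 835 and 876 CPM to 531, 558 and 521 CPM (-0.71 ± 0.04). Each of these 4 had groups well apart. Without replicate 2 of Dgal, 2 iron genes were called lower.

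Whether the fraction acted differently with D-galactose was tested as the difference between its effect with D-galactose (SFr_Dgal against Dgal) and without it (SFr against Control). Few genes differed: 71 (0.583%), 26 (0.213%) with a more positive and 45 (0.369%) with a more negative effect under D-galactose, and 4 (0.0328%) by at least 2-fold. The labels give 12 h for SFr alone and 12 h before 24 h of D-galactose for SFr_Dgal, and do not say when cells given SFr alone were harvested, so the sugar and any difference in time cannot be told apart. The count was 13 when the 12 libraries of these 4 groups were fitted alone and 108 in DESeq2. It was 140 without replicate 3 of Control and 37 to 45 without replicate 2 or 3 of SFr_Dgal, replicate 2 or 3 of Dgal or replicate 1 or 3 of SFr.

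The clearest single difference was in Fam167a, a gene of little known function. It fell from 91.3 ± 4.18 CPM (Control) to 72.8 ± 0.626 CPM (SFr) and, after D-galactose, from 89.5 ± 2.05 CPM to 49.3 ± 4.60 CPM in SFr_Dgal (SD, n = 3), so the effect was lower by 0.53 on the log2 scale under D-galactose (difference -0.53 ± 0.07, adjusted p = 2.25e-05). Myh3, embryonic myosin, went from 4192 ± 136 to 2113 ± 122 CPM with the fraction alone and fell less from the lower level after D-galactose (2714 ± 114 to 1860 ± 67.6 CPM, difference 0.44 ± 0.06). Spp1, osteopontin, rose from 1462 ± 55.0 to 3633 ± 151 CPM without and from 1301 ± 16.8 to 2467 ± 104 CPM with D-galactose (difference -0.39 ± 0.05). In these 3 genes the fraction moved the level the same way in both settings and by a different amount. Car2, carbonic anhydrase 2, went from 23.6 ± 0.494 to 31.0 ± 1.33 CPM without D-galactose, while with it the level was 25 ± 1.71 and 22.6 ± 0.388 CPM (difference -0.54 ± 0.08). Sfrp2, a secreted Wnt antagonist, was at 85.0 ± 3.82 and 79.5 ± 2.63 CPM without D-galactose and rose from 59.7 ± 0.927 to 76.1 ± 1.53 CPM with it (difference 0.45 ± 0.07). Anxa8, an annexin, went from 164 ± 8.01 to 187 ± 5.26 CPM and from 207 ± 13.9 to 183 ± 3.16 CPM (difference -0.37 ± 0.06), opposite directions in the 2 settings. These 6 were called in each of the 17 alternatives tried. Of the lists, those of cholesterol synthesis, sterol sensing, efflux, mitosis, collagens and glutathione transferases held 0 genes called for this difference. Over all genes tested the share was 0.583%, so 0 in lists of this size lies near it. It does not show that the effects were equal.

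**Figure D5:**
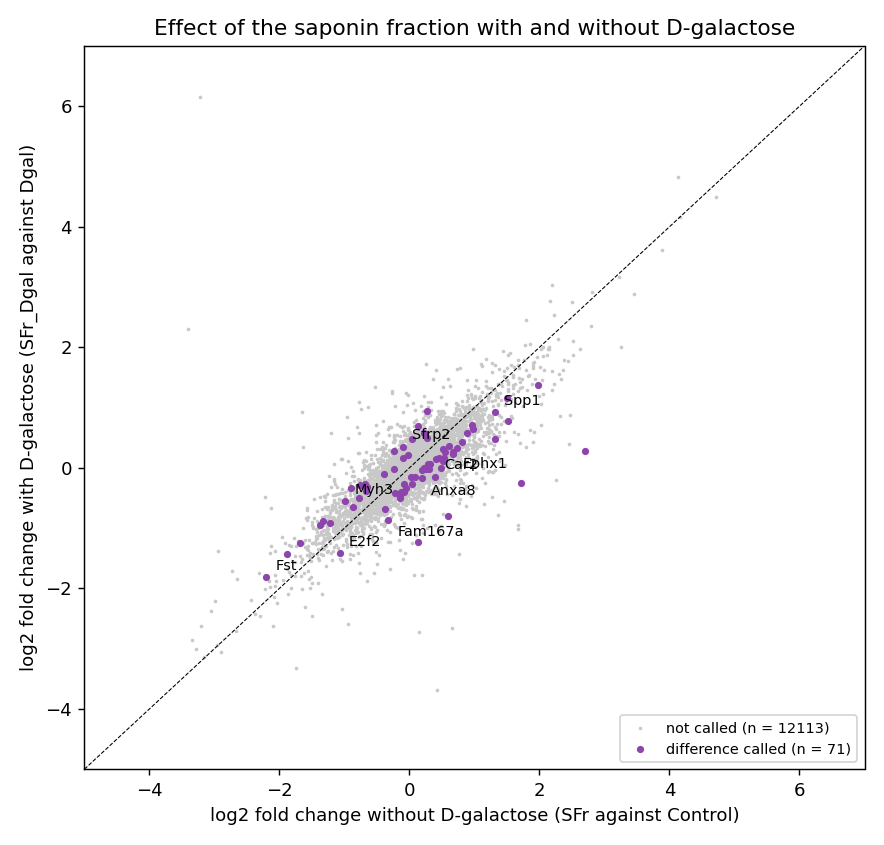
Log2 fold change of the saponin fraction with D-galactose (vertical) against that without D-galactose (horizontal) for 12184 genes. The dashed line marks equal effects, and 71 genes whose difference was called are purple, among them Fam167a and Car2 below the line and Myh3, Fst and Sfrp2 above it.

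Comparison with the other preparations at the same dose and times showed a similar number of differences as D-galactose alone did. Against the non-saponin fraction (NSFr_Dgal), 4998 genes differed (41%), 2522 higher and 2476 lower in SFr_Dgal, and 450 (3.69%) by at least 2-fold. Against the water extract (RGW_Dgal), 4656 genes differed (38.2%), 2290 higher and 2366 lower, and 398 (3.27%) by at least 2-fold. These comparisons share the SFr_Dgal libraries with the one above, so their lists of genes are not independent.

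Gsta1 was at 0.756 ± 0.0898 CPM in NSFr_Dgal and 0.672 ± 0.128 CPM in RGW_Dgal against 12.5 ± 2.14 CPM in SFr_Dgal (SD, n = 3), log2 differences of 4.05 ± 0.17 and 4.22 ± 0.17. Gpr137b was at 13.3 ± 1.57 and 12.8 ± 0.467 CPM against 57.3 ± 4.39 CPM, and Ranbp3l at 2.35 ± 0.415 and 2.23 ± 0.363 CPM against 10.2 ± 0.557 CPM. On the lower side, Col23a1 was at 18.1 ± 1.68 CPM in NSFr_Dgal and 16.8 ± 0.669 CPM in RGW_Dgal against 2.61 ± 0.0478 CPM, Gja5 at 86.0 ± 2.92 and 76.0 ± 3.20 CPM against 13.2 ± 0.947 CPM, and Hsd17b13, a lipid droplet protein, at 8.49 ± 0.451 and 8.70 ± 0.315 CPM against 1.62 ± 0.210 CPM. All 6 differences had an adjusted p of at most 1.63e-14 in both comparisons. Levels in the other 2 preparations lay near those of Dgal for most of these genes, as Gsta1 at 0.554 ± 0.201 CPM and Gpr137b at 14.7 ± 0.708 CPM show, while Gja5 was at 58.0 ± 3.14 CPM in Dgal.

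The pathways named above differed between preparations as well. Insig1 was at 87.8 ± 2.65 CPM in NSFr_Dgal and 96.0 ± 2.13 CPM in RGW_Dgal against 340 ± 7.70 CPM in SFr_Dgal, differences of 1.95 ± 0.04 and 1.82 ± 0.04. Nqo1 was at 3.30 ± 0.304 and 3.08 ± 0.247 CPM against 9.69 ± 0.824 CPM. Fst was at 171 ± 4.43 and 164 ± 4.79 CPM against 45.3 ± 2.94 CPM, and Mef2c at 612 ± 29.7 and 619 ± 22.6 CPM against 314 ± 25.1 CPM. In the mitosis list, Ccna2 was at 17.5 ± 1.25 CPM in NSFr_Dgal, 10.9 ± 0.449 CPM in RGW_Dgal and 4.97 ± 0.461 CPM in SFr_Dgal. For Cebpb the difference from the water extract was not called (0.65 ± 0.37, adjusted p = 0.177).

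Rb2, a single ginsenoside, was given in micromolar units, so its values stand beside those of the fraction without a comparison. In Rb2_Dgal, Gsta1 was at 0.479 ± 0.141 CPM, Insig1 at 118 ± 3.94 CPM, Nqo1 at 3.75 ± 0.522 CPM and Fbxo40 at 33.0 ± 1.53 CPM (SD, n = 3). Col23a1 was at 10.7 ± 0.622 CPM, Gja5 at 39.8 ± 3.17 CPM, Fst at 124 ± 2.07 CPM and Mybpc1 at 58.9 ± 1.17 CPM. In SFr_Dgal the same 4 genes stood at 2.61 ± 0.0478, 13.2 ± 0.947, 45.3 ± 2.94 and 14.1 ± 1.78 CPM.

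What remained different from vehicle after both agents was tested as SFr_Dgal against Control. Here 6082 genes differed (49.9%), 2988 higher and 3094 lower, and 636 (5.22%) by at least 2-fold. The leading rises were Gsta1, from 0.275 ± 0.0336 CPM in Control (5.47 ± 0.21), Ranbp3l, from 1.54 ± 0.268 CPM (2.72 ± 0.16), and Fbxo40, from 28.4 ± 1.21 to 157 ± 5.56 CPM (2.47 ± 0.06). The leading falls were Col23a1, from 29.5 ± 1.35 CPM (-3.50 ± 0.08), Gja5, from 85.8 ± 0.338 CPM (-2.70 ± 0.07), and Mki67, from 51.0 ± 3.74 to 8.16 ± 0.806 CPM (-2.64 ± 0.19). Mki67 was at 20.5 ± 0.658 CPM in Dgal, between the vehicle and the doubly treated cells, as was Ccna2 with 25.2 ± 0.709 CPM in Control, 10.8 ± 0.986 CPM in Dgal and 4.97 ± 0.461 CPM in SFr_Dgal. Slc16a6, a monocarboxylate transporter family gene picked after its values were seen, averaged 5.88 CPM in Control and stood at 13.1, 14.8 and 14.8 CPM in Dgal and 14.3, 13.6 and 13.7 CPM in SFr_Dgal, where the fraction made no called difference (-0.04 ± 0.07).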

How the data were processed

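Poly(A) RNA of C2C12 myotubes was sequenced as directional paired-end libraries, per the labels' protocols. Trimming used Trim Galore 0.6.10, alignment and quantification STAR 2.7.9a and RSEM 1.3.3, and FastQC 0.11.9 is named too, with GRCm38 (mm10), per the submitters' processing notes. For annotation and strand setting, the sources used here give nothing. The deposited table holds expected counts per gene symbol, estimated by the authors with RSEM and not normalized. RSEM divides reads between close copies, so 19.4% of the values were not whole, and such copies are uncertain.

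Expected counts were rounded and fitted with edgeR 4.0.16 in R 4.3.3 (quasi-likelihood, robust, TMM scaling, filterByExpr), in 1 group model over all 30 libraries. Calls needed an adjusted p (Benjamini-Hochberg, over 12184 genes) under 0.05. Standard errors beside log2 fold changes were derived from the F statistic. CPM were scaled to the kept genes times the TMM factor, and those of marker sums and untested genes to the library total. Depth was 22209306 to 30218420 counts per library over the series, and intervals from counts cover counting error only.

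The members, the 42 gene lists (826 entries) and the 6 marker lists were chosen with earlier results of these data known. Among called genes of at least 5 CPM without overlap of groups, named genes were the 12 largest rises and falls by log2 fold change and the 5 largest of each by CPM difference. The 3 largest rises and falls of each other comparison met the same conditions there. Up to 5 called members of each list of at least 5 CPM were added, whether or not groups overlapped. The 6 genes of smallest p for the difference with D-galactose needed at least 5 CPM only. Regulators named without meeting these conditions are list members. Predicted genes and clones were left out. Some list members are not reported here. Names outside this rule are list members or were chosen after their values were seen. Alternatives were RLE scaling, no filter, DESeq2 1.42.0, a block for replicate number, a fit of the compared groups alone and leaving out each library. The tests were checked on simulated data. Promoter letters came from RefSeq (GRCm38.p6) and gene positions from GENCODE vM21 (GRCm38).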

Additional observations from a re-analysis of the deposited data

Results flagged for a closer look

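For the genes below, which were named in the lists, by rule or after their values were seen, the effect of the saponin fraction differed with and without D-galactose in the edgeR test of that difference, given here as the log2 effect with D-galactose minus that without. The difference was negative in Fam167a (-0.53), Car2 (-0.54), Spp1 (-0.39), Anxa8 (-0.37) and the epoxide hydrolase Ephx1 (-0.42), each called in all 17 alternatives, and positive in Myh3 (0.44) and Sfrp2 (0.45), likewise called in all 17. Follistatin, Fst (0.39), the actin filament gene Lmod2 (0.26) and the protease inhibitor Serpine2 (-0.38) lost the call in 1 alternative, the fit of the 12 libraries of these groups alone. Tmod1, tropomodulin (0.24), lost it in 3, Lox, a collagen crosslinker (-0.26), in 4, E2f2 (-0.34) in 5, Arrdc3, of the α-arrestins (-0.36), in 7, the fast myosin Myh2 (0.48) in 11 and Timp1 (-0.24) in 14. For E2f2 the call was lost without replicate 2 or 3 of SFr_Dgal, replicate 1 of Dgal or replicate 3 of SFr, and for Lox without replicate 2 of SFr_Dgal or replicate 2 or 3 of Dgal.

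The 4 genes with a difference of at least 2-fold were all under 3 CPM in every library of the 4 groups. They were Adat3 (-1.97), Il1rl1 (-1.39), Lrrtm2 (-1.35) and Vmn1r42 (-2.42). Adat3, a tRNA deaminase subunit, was at 0.592, 1.10 and 0.516 CPM in Control, 1.94, 2.76 and 2.51 CPM in SFr, 1.03, 1.38 and 1.05 CPM in Dgal and 0.967, 1.02 and 0.912 CPM in SFr_Dgal, and kept the call in all 17 alternatives. Il1rl1, the receptor of interleukin 33, lost it in 1, the fit of these groups alone, Lrrtm2 in 12 and Vmn1r42 in 14 of the 16 in which it was tested.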

How the results depend on the processing

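Under the 11 alternatives for SFr_Dgal against Dgal, the count of called genes ranged from 4152 (only these 6 libraries fitted) to 5038 (RLE scaling), with 4716 in DESeq2. Leaving out 1 library gave 4292 to 4742. With the replicate number as a block it was 4974. The numbers share only a name: deviations of same-numbered libraries correlated at -0.113, 0.0336 and 0.00355. Of 545 called genes in the lists or named by rule, 465 were called in all 11 alternatives and 0 changed direction. By rule, 228 were named, and 215 kept their call. Il33, Nr1h2, Lpcat3, Slc7a11, Prim1, Galm, Car2, Cox7a1, Cox8b, mt-Nd1, mt-Nd3, mt-Nd5 and mt-Nd6 lost it in at least 1. Of 924 pairs of a list count and an alternative, 40 were over 1.5 times apart, 11 of them without replicate 3 of SFr_Dgal. The count for the difference with and without D-galactose was 71 and less stable: 13 with only the groups compared, 108 in DESeq2, and 37 (without replicate 2 of Dgal) to 140 (without replicate 3 of Control) with a library left out. RLE scaling moved log2 fold changes by a median of 0.00114. At this depth, 3 counts are 0.0993 to 0.135 CPM, so differences between levels under that could not be measured. Rises from such a level could be called, as in Gsta2.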

Other observations

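Lists outside the groups described above held scattered changes. Over all genes tested 20.3% were called higher and 21% lower, and the growth factor and Wnt lists below lay near those shares. Among 13 genes of the insulin-like growth factor axis, 3 rose and 3 fell (5 fell without replicate 3 of SFr_Dgal). The binding proteins Igfbp4 and Igfbp3 went opposite ways, while Igfbp2, Igfbp5, Igfbp6 and Igfbp7 were not called. Igfbp4 rose from 53.7, 57.4 and 57.0 CPM in Dgal to 154, 155 and 167 CPM in SFr_Dgal (log2 fold change 1.5 ± 0.06), and Igfbp3 fell from 23.2, 21.8 and 22.3 CPM to 7.57, 9.79 and 9.25 CPM (-1.34 ± 0.08). The ligand Igf2 fell by 0.44 ± 0.03 and the receptor Insr rose by 0.35 ± 0.07. Of 23 p53 targets, 6 rose and 10 fell (median -0.03), with Ccng1 at 565, 565 and 549 CPM against 375, 402 and 379 CPM (-0.54 ± 0.03) and Mdm2 not called (-0.03). Wnt feedback genes gave 2 rises and 3 falls among 13 (median -0.03), with Porcn, which lipidates Wnt ligands, at 351, 363 and 362 CPM against 195, 194 and 188 CPM (-0.90 ± 0.05).

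Among 11 enzymes of galactose breakdown and the polyol pathway, 5 rose and 2 fell (median 0.15, with 3 rises without replicate 3 of SFr_Dgal or of Dgal). Sord, sorbitol dehydrogenase, was at 32.0, 34.1 and 32.4 CPM in Dgal and 52.0, 50.3 and 50.7 CPM in SFr_Dgal (0.64 ± 0.05). Of 10 genes of the thrombomodulin and plasminogen system, 5 rose and 4 fell (median 0.12, with 3 rises without replicate 3 of SFr_Dgal or replicate 2 of Dgal). Besides Thbd, the plasminogen activators fell, Plat from 90.6, 86.7 and 92.5 CPM to 46.3, 47.7 and 44.8 CPM (-0.96 ± 0.04) and Plau by 0.75 ± 0.06. Padi3, a peptidylarginine deiminase noticed after its values were seen, was at 4.82, 4.06 and 4.51 CPM in Dgal and 0.415, 0.609 and 0.717 CPM in SFr_Dgal (-2.93 ± 0.22).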
